A study of Mus musculus with 6 samples.

Results

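The genes described here encode the proteins of elastic fibres and of the microfibrils around them. They were the 10 genes Mfap2, Mfap4, Mfap5, Fbn1, Fbn2, Eln, Fbln1, Fbln2, Fbln5 and Efemp2, chosen by name, with every probe set annotated to one of them alone. The annotation listed 16 such probe sets for 8 of the 10 genes, among 45101 probe sets and 18193 named genes in all, and Fbn1 and Efemp2 were not analysed here. Microarray signals of mouse cells were compared in 4 groups: bone marrow derived dendritic cells (BMDC, 2 arrays), follicular dendritic cells grown in vitro (FDC, 2 arrays), FL-Y (1 array), an FDC-like line transformed with SV40, and FL-Y activated with an antibody against the lymphotoxin beta receptor (1 array). The labels give no strain, age, dose or time, and do not say whether paired arrays came from separate cultures, so a p-value reflects the spread of the arrays in hand, which may be technical. FL-Y is a single line on single arrays, and its differences have no replicate check.

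An elastic fibre has a core of crosslinked elastin laid down on a scaffold of microfibrils. Microfibrils are built from fibrillins and carry the small glycoproteins of the Mfap family, while fibulins bridge elastin, microfibrils and the enzymes that crosslink elastin. Microfibrils also occur without elastin and hold latent TGF-beta in the matrix. Fibroblasts and smooth muscle cells are the usual makers of these proteins, and in lymphoid organs reticular stromal cells deposit microfibrils around collagen fibres.

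Promoter sequences of 3 genes that rose in FDC are shown because these genes moved together across the cell types. The promoter table used here (RefSeq, GRCm38.p6) matched 4 of the 8 measured genes, Mfap2, Fbln1, Fbln2 and Fbln5, and the 250 bases before the most upstream start are given 5′ to 3′ on the gene's strand. The windows lie at chr6:91212514-91212763 on the plus strand for Fbln2, chr12:101819120-101819369 on the minus strand for Fbln5 and chr4:141010174-141010423 on the plus strand for Mfap2. Capitals mark matches on either strand to 5 motifs. They are the TATA box as TATAAA, the GC box as GGGCGG, the CCAAT box as CCAAT, letters of SMAD elements as CAGACA, and the AP-1 site as TGANTCA. No match overlapped another motif in these windows.
Fbln2: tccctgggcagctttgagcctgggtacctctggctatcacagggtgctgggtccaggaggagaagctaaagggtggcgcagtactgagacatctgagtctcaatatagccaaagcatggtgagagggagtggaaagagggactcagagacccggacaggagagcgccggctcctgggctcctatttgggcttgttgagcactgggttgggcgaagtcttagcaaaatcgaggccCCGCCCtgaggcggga
Fbln5: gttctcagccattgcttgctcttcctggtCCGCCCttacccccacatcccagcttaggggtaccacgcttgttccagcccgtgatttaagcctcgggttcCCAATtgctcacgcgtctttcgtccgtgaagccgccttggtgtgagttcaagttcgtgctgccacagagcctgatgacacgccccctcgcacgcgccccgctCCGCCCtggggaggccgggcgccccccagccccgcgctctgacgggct
Mfap2: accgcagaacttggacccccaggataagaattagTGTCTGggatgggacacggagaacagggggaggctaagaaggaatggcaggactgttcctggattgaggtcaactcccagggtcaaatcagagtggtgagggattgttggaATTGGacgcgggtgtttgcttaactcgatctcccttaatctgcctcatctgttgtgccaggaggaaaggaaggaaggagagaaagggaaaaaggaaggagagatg
GGGCGG occurred once before Fbln2 and at 2 places before Fbln5, all on the reverse strand. It was found in 32.7% of 32817 such windows. CCAAT occurred before Fbln5 and before Mfap2, against 33.8% of all windows. CAGACA was matched before Mfap2 and before Fbln1, the window not printed, against 17.1%. TATAAA (12.4% of all windows) and TGANTCA (6.75%) had no match in the 4 windows, so no motif of the 5 was common to all 4 genes. These matches are a description of letters.

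The paired arrays are named FDC array 1 and 2 and BMDC array 1 and 2. Each array had been scaled to the same trimmed mean, and medians lay between 47.9 and 84.4 signal units. The 20th percentile of an array, 8.7 to 15.4 signal units, served as a mark of dim signal, not as a measured limit of detection. The label of the FDC arrays was checked against markers. Of all tested genes, 5.87% were called higher in FDC than in BMDC and 5.4% lower. Of 10 fibroblast markers, 8 were higher in FDC than in BMDC and 0 lower, with a summed signal of 234750 and 147310 on the FDC arrays and 2927 and 1875.4 on the BMDC arrays. Of 12 tested FDC markers, 0 were higher and 3 lower, and the complement receptor Cr2, which defines FDC in follicles, was at 119.5 and 4.1. The 3 lower ones were Fcgr2b, Clu and Mfge8. Fcgr2b read 199.4 and 198 on the FDC arrays against 32488 and 23876.6 in BMDC. Clu read 221.6 and 71.2 against 3475.7 and 5286.4, and Mfge8 5146.4 and 6483.8 against 27357.5 and 25081.7. Among the others, the adhesion molecule Vcam1 read 6959.3 and 5764.4 against 108.4 and 874.7 in BMDC (4.27 ± 0.95 SE, adjusted p = 0.0566 in limma), and the chemokine Cxcl13 read 1288.2 and 64.5 against 50.9 and 36.4. All 8 leukocyte markers were lower in FDC, with a sum of 4102.7 and 3338.3 against 200510 and 180430 in BMDC and 160.4 in FL-Y. Of 5 mast cell markers 3 were higher in FDC, with a sum of 5473.9 and 9853.2 against 3020.9 and 623.7 in BMDC and 227.3 in FL-Y. The FDC are called by their label here. The part of these other cell types in the results was not tested. In bulk RNA, more cells that make a transcript and more RNA per cell cannot be told apart.

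Cultured FDC carried transcripts of the microfibril protein Mfap5 and of the fibulins Fbln2 and Fbln5 far above BMDC, and FL-Y carried them too. Elastin and Fbn2 stayed under 120 signal units on all arrays, and Mfap4 was bright on 1 FDC array alone.

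**Figure D1:**
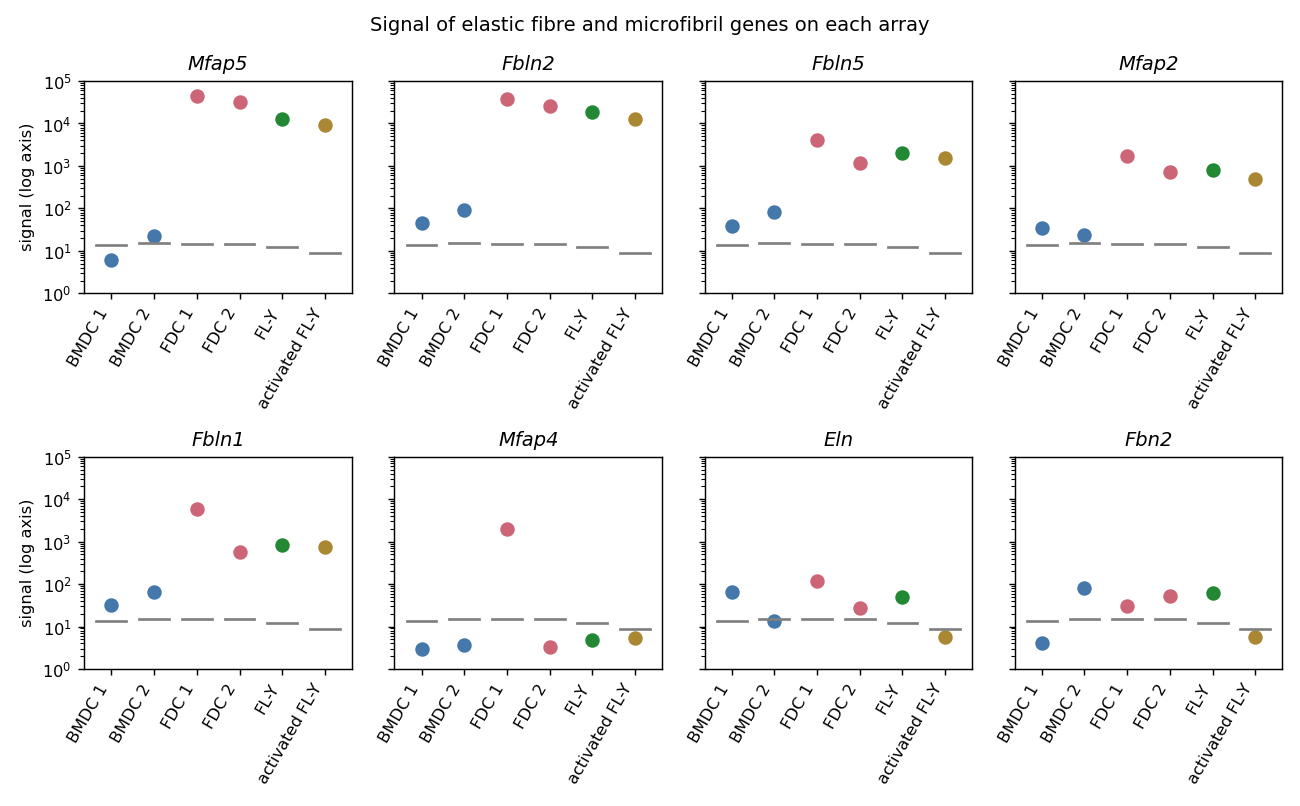
Signal (log axis) of the brightest probe set of each of 8 genes on the 6 arrays, 1 point per array, with grey bars at the 20th percentile of each array. Mfap5 and Fbln2 stood at or above 9228.6 on the FDC and both FL-Y arrays, Mfap4 stood at 2002 on FDC array 1 and under the bar on the other 5, and Eln and Fbn2 stayed under 120.

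The microfibril-associated glycoproteins were read first. Mfap5 binds fibrillin and is found on microfibrils with and without elastin. Its brighter probe set (1418454_at) read 45348.0 and 32276.5 on the FDC arrays, 12667.7 on FL-Y, 9228.6 on activated FL-Y, and 6.1 and 22.8 on the BMDC arrays. The groups did not overlap, and 1 of the 2 BMDC values lay under the 20th percentile. The difference between FDC and BMDC was 10.45 ± 0.47 (SE) on the log2(signal + 14.2) scale, and the second probe set (1449082_at) gave 8.48 ± 0.58, with an adjusted p of 0.00264 and 0.00303 in limma (Benjamini-Hochberg). Its size depends on the offset, and lay between 9.18 and 11.66 with other offsets.

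Mfap2, the closest relative of Mfap5 and also a fibrillin-binding protein, was also higher in FDC. It read 1742.6 and 720.1 on the FDC arrays and 34.9 and 23.2 on the BMDC arrays. FL-Y was at 822.6 and activated FL-Y at 502.1. Both FDC arrays stood above both BMDC arrays, and the difference was 4.73 ± 0.54 (SE; adjusted p = 0.00885 in limma). The second Mfap2 probe set (1447833_x_at) gave 2.36 ± 0.52 and missed the threshold (adjusted p = 0.0543 in limma). On that probe set the FDC signals were 255.4 and 121.4, against 15.2 and 32.7 in BMDC.

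Mfap4, a fibrinogen-related protein that binds elastin and fibrillin fibres, was bright on 1 array. Its only probe set (1424010_at) read 2002 on FDC array 1 and 3.3 on FDC array 2. It read 3.0 and 3.7 on the BMDC arrays, 4.8 on FL-Y and 5.3 on activated FL-Y. All 5 of these lie under the 20th percentile of their array. The filter was set on the mean log2 value, which for Mfap4 equals a signal of 43.2 against a limit of 46.4, so it was not tested. Without the filter its difference was 3.42 ± 2.14 (SE; adjusted p = 0.522 in limma). Without FDC array 2, with FDC array 1 alone and the spread taken from the BMDC arrays, the value was 6.84 ± 0.48 (adjusted p = 0.00889 in limma).

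The fibulins are calcium-binding proteins that join elastin to microfibrils and to basement membranes. Fbln2 binds elastin, fibrillin and fibronectin. Its brighter probe set (1423407_a_at) read 37498.4 and 25724.5 on the FDC arrays, 19093.0 on FL-Y and 13091.3 on activated FL-Y. The BMDC signals of 46.5 and 89.3 lay below every FDC and FL-Y value. The difference between FDC and BMDC was 8.61 ± 0.46 (SE; adjusted p = 0.00264 in limma). A second probe set (1438375_at) had 142.4 and 115.9 in FDC against 5.8 and 36.4 in BMDC, a difference of 2.17 ± 0.55 that missed the threshold (adjusted p = 0.0809 in limma).

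Fbln5 tethers the crosslinking enzyme Loxl1 to elastin and is needed to organise elastic fibres. It read 4106.4 and 1158.9 on the FDC arrays, 2071.2 on FL-Y, 1523.0 on activated FL-Y, and 38.5 and 80.5 on the BMDC arrays. FL-Y and activated FL-Y lay between the FDC arrays, and the BMDC arrays lay below all of them. FDC exceeded BMDC by 4.96 ± 0.71 (SE; adjusted p = 0.0166 in limma), and the call was lost without BMDC array 1 (4.54, adjusted p = 0.0553). Its other probe set (1446377_at) read between 2.7 and 48.7 and was not tested.

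Fbln1, a fibulin of basement membranes and of the elastin core, had the widest spread within FDC among the fibulins. Its brightest probe set (1451119_a_at) read 5720.6 and 568.4 on the FDC arrays and 32.1 and 65.2 on the BMDC arrays. FL-Y was at 811.3 and activated FL-Y at 765.1. The FDC arrays lay above the BMDC arrays, but the difference of 4.91 ± 1.10 (SE) missed the threshold (adjusted p = 0.0572 in limma). Leaving out either FDC array brought it past the threshold (3.26 without array 1, adjusted p = 0.0440 in limma, and 6.56 without array 2, adjusted p = 0.00950), since each leaves 1 FDC array and no spread in FDC. A second probe set (1422540_at) gave 3.03 ± 0.90 (adjusted p = 0.116 in limma). The third (1439688_at) read 151.6 and 130.5 in FDC and 155.0 and 138.7 in BMDC, a difference of -0.05 ± 0.37 (adjusted p = 0.949 in limma), so the probe sets of Fbln1 disagree.

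Elastin and the fibrillin measured here had low signals that did not pass the filter. Eln, the elastin chain itself, read 118.4 and 26.9 on the FDC arrays, 66.5 and 13.8 on the BMDC arrays, 51.0 on FL-Y and 5.7 on activated FL-Y on its brighter probe set (1420855_at). The FDC and BMDC arrays overlapped. The other Eln probe set (1420854_at) read 81.6 and 15.9 in FDC and 24.1 and 11.8 in BMDC. Fbn2, the fibrillin of developing microfibrils, lay between 1.6 and 79.8 over both of its probe sets and all 6 arrays. On probe set 1422831_at its signal was 3.9 on FDC array 1 and 74.8 on FDC array 2, while on probe set 1454830_at it was 31.2 and 52.1. Without the filter the differences were 0.64 ± 0.81 (SE) for Eln and 0.41 ± 0.85 for Fbn2, with an adjusted p of 0.770 and 0.875 in limma. These signals do not show whether the transcripts are absent.

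**Figure D2:**
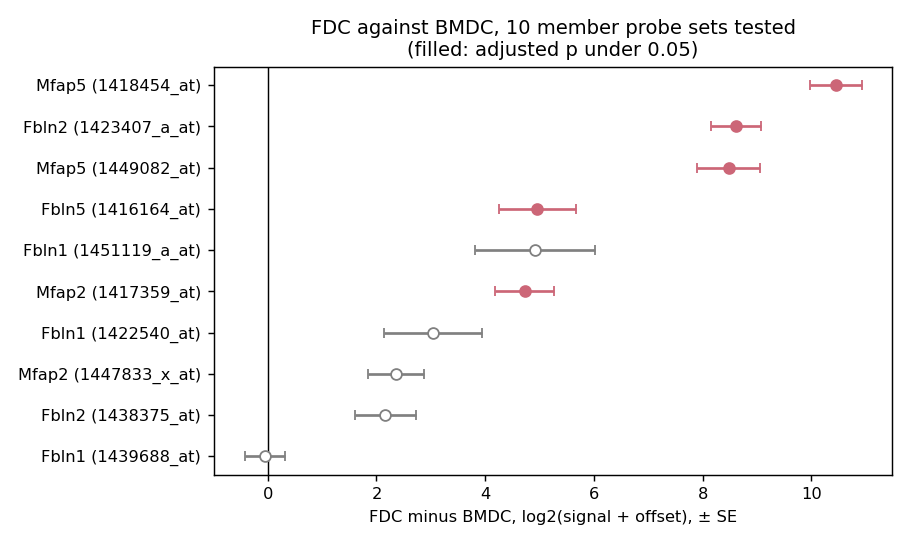
Difference between FDC and BMDC on the log2(signal + 14.2) scale with its SE for the 10 tested probe sets, filled where the adjusted p in limma was under 0.05. Filled points run from 4.73 (Mfap2) to 10.45 (Mfap5), while the 3 Fbln1 probe sets are open and run from -0.05 to 4.91.

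By gene, 4 of the 5 tested members were called higher in FDC (Mfap5, Fbln2, Fbln5 and Mfap2) and 0 lower, where 5.87% of 12750 tested genes were called higher and 5.4% lower. On the brightest probe sets both FDC arrays lay above both BMDC arrays for all 5, against 28.8% of tested genes. For 2 of the 5 another probe set overlapped between FDC and BMDC. These were Fbln1 (1439688_at) and Fbln5 (1446377_at, not tested). By probe set, 5 of 10 were called higher, against 4.84% of 27022, and without FDC array 2 the count was 9 of the 11 probe sets that passed the filter there, the Mfap4 probe set among them. The BMDC signals of the 8 brightest probe sets lay between 3.0 and 89.3, and Mfap5 and Mfap2 lay under the filter in BMDC (mean log2 values equal to a signal of 13.2 and 28.6) and passed it through their FDC signals. The count of called members is therefore a description. Mfap4, Eln and Fbn2 did not pass it.

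The FDC arrays differed from each other in one direction for the tested members. FDC array 1 was the higher of the pair for 5 of 5 tested members, where 53.1% of tested genes were higher there, and by at least 1 on the log2 scale for Fbln1, Fbln5 and Mfap2, where the share was 12%. The log2 differences were 3.30 for Fbln1, 1.81 for Fbln5, 1.26 for Mfap2, 0.54 for Fbln2 and 0.49 for Mfap5. Among the genes not tested Eln differed by 1.69 and Fbn2 by -0.55, and their other probe sets gave 1.67 and -2.30. The Mfap4 difference of 6.85 was reached in that direction by 5 of 18193 named genes, Mfap4 included, or 0.0275%, and in the other direction by 2 (0.011%). Mfap4 was the only named gene with at least 500 signal units on FDC array 1 and a value under the 20th percentile on the other 5 arrays, a pattern that was chosen after its values were seen, and 1 gene, Prl8a9, had the same pattern on FDC array 2. Beside this, the summed signal of 10 fibroblast markers was 234750 on FDC array 1 and 147310 on FDC array 2, with 10 of 10 above the 20th percentile on both. The sum of 9 smooth muscle and mural markers was 20292 and 62923, with 9 and 8 of 9 above it, where Cnn1 (calponin) was at 107.3 and 2955.3 and Acta2 (smooth muscle actin) at 5937.2 and 25468.5, while Mylk (myosin light chain kinase) was at 982.7 and 152.0. The part of these cell types in the difference was not tested.

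**Figure D3:**
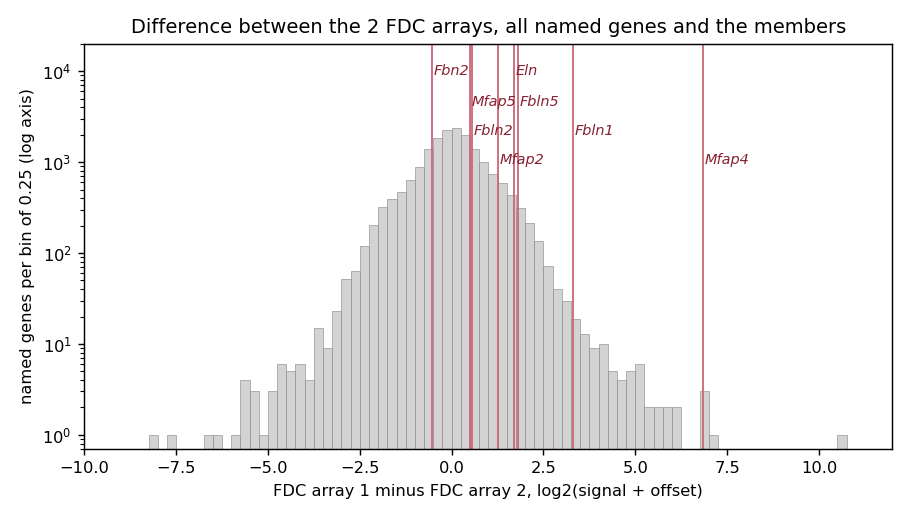
Histogram (log axis) of the log2 difference between FDC array 1 and FDC array 2 for all 18193 named genes, with red lines at the 8 members. Mfap4 at 6.85 and Fbln1 at 3.30 lie in the right tail, and Fbn2 at -0.55 is the only member on the left.

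FL-Y also carried transcripts of the 5 tested members, each read by its brightest probe set. FL-Y stood at least 1 on the log2 scale above both BMDC arrays for 5 of 5 tested members, where 14.4% of tested genes did. Mfap5 and Mfap2 passed the filter through their FDC signals. FL-Y lay 8.85 above the BMDC mean for Mfap5, 7.91 for Fbln2, 4.88 for Fbln5, 4.29 for Mfap2 and 3.77 for Fbln1. On the third Fbln1 probe set (1439688_at) FL-Y was at 94.1, below both BMDC arrays (-0.64 and -0.50). On the other tested probe sets of these genes FL-Y lay at least 1 above both. Mfap4, not tested, read 4.8 on FL-Y.

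Against FDC, Mfap5 read lower on FL-Y. FL-Y lay below both FDC arrays by at least 1 for 1 of 5 tested members, Mfap5, against 14.8% of tested genes. FL-Y minus FDC was -1.84 and -1.35 for Mfap5 on the 2 FDC arrays, which differed from each other by 0.49, and its second probe set gave FL-Y minus FDC values of -1.88 and -1.40. Fbln2 lay below both FDC arrays by less, with -0.97 and -0.43 beside 0.54 between the FDC arrays, so FL-Y and FDC array 2 do not differ beyond that spread. On the second Fbln2 probe set (1438375_at) FL-Y lay between the FDC arrays, with -0.01 and 0.26. For Fbln5, Mfap2 and Fbln1, 3 of 5, FL-Y lay between the FDC arrays, as it did for 22.3% of tested genes. Among the same 5 genes the count at least 1 lower was 3 without FDC array 2 (Mfap5, Mfap2 and Fbln1), and with all arrays set to one median it was 0. Mfap4 and Eln, not among the 5, lay below FDC array 1 by more than 1 as well (FL-Y minus FDC array 1 of -6.73 and -1.02). That median scaling moved the median FL-Y minus FDC difference of all tested probe sets from -0.15 to 0.22, and turned Fbln5 from -0.08 to 0.33.

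On the FL-Y array activated through the lymphotoxin beta receptor these transcripts read below the untreated array. The receptor drives the growth of lymphoid stroma. The activated array was lower than the untreated one for 5 of 5 tested members, where 54.9% of tested genes were lower. None reached a fall of 1 on the log2 scale (0 of 5, against 5.86% of tested genes). The differences, activated minus untreated, were -0.70 for Mfap2, -0.54 for Fbln2, -0.46 for Mfap5, -0.44 for Fbln5 and -0.08 for Fbln1 on their brightest probe sets. On the other tested probe sets they were -0.99 for Mfap2, -0.40 for Fbln2 and -0.54 for Mfap5. For Fbln1 they were -0.18 (1422540_at) and -0.95 (1439688_at). All 10 tested probe sets had the lower value on the activated array, but probe sets of a gene share its RNA. Paired arrays of one cell type differed from each other by a median absolute difference of 0.49 (FDC) and 0.43 (BMDC) over all tested genes. On the brightest probe sets the falls of Mfap2 and Fbln2 were larger than both of these medians. Those of Mfap5 and Fbln5 lay between them, and that of Fbln1 was smaller. With 1 array in each state, an effect of activation was not tested. Between the activated and untreated FL-Y arrays the median absolute difference over all tested genes was 0.27. On the brightest probe sets the falls of Mfap2, Fbln2, Mfap5 and Fbln5 were larger than that and the fall of Fbln1 was smaller. With one median for all arrays the median of all tested probe sets was 0.31 instead of -0.02, and Fbln1 turned to 0.26 while the other 4 stayed negative, from -0.36 to -0.09. Eln and Fbn2 lay under the 20th percentile on the activated array, at 5.7 against 51.0 untreated for Eln and 5.6 against 62.5 for Fbn2 on their brighter probe sets. The other Eln probe set read 8.9 activated and 7.5 untreated, and the other Fbn2 probe set 1.6 and 6.9.

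**Figure D4:**
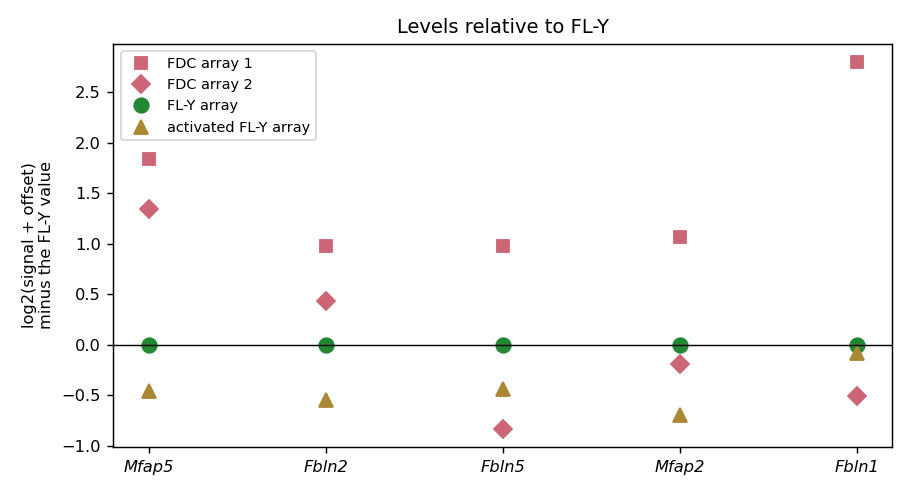
Levels of the 5 tested members on the FDC, FL-Y and activated FL-Y arrays, as log2(signal + 14.2) minus the FL-Y value, 1 point per array. Each gene is read by its brightest probe set. Both FDC arrays lie above FL-Y for Mfap5 and Fbln2, FL-Y lies between them for Fbln5, Mfap2 and Fbln1, and the activated array lies 0.08 to 0.70 below FL-Y.

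On the brightest probe sets, the order of levels was FDC array 1, FDC array 2, FL-Y, activated FL-Y and BMDC for Mfap5 and Fbln2. It was FDC array 1, FL-Y, activated FL-Y, FDC array 2 and BMDC for Fbln5 and Fbln1. For Mfap2 FDC array 2 lay between FL-Y and activated FL-Y. In all 5 the BMDC arrays came last, and the other neighbours in the order are separated by no more than the FDC arrays, except FL-Y under FDC for Mfap5, while the step from FL-Y to activated FL-Y for Fbln2 (-0.54) was the same size as the gap between the FDC arrays. Over the 6 arrays the log2 levels of the 5 genes correlated pairwise at r = 0.918 (Fbln1 and Fbln2) to 0.998 (Mfap5 and Fbln2). The 5 genes share the arrays, with the lowest values of each on the BMDC arrays. Of 12745 other tested genes, those with the highest mean r to the 5 members over the 6 arrays were Echdc2 (0.985), Smad5 (0.985), Zfhx4 (0.984), Pdia5 (0.984), Rcn3 (0.983) and Medag (0.982). Smad5 transmits BMP signals, Pdia5 and Rcn3 are proteins of the endoplasmic reticulum, and Zfhx4 is a transcription factor.

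Other genes of elastic fibre assembly were read from lists. Of 18 tested genes for assembly and crosslinking, 7 rose in FDC (against 5.87% of all tested genes), 0 fell (5.4%) and 11 did not pass. The median difference was 1.03 beside -0.03 over all tested genes. Genes dim in 1 cell type could pass the filter through the other, so the counts of these lists are descriptions. Lox and Loxl1, the enzymes that crosslink elastin, read 58045.6 and 46762.9 (Lox) and 18895.2 and 10415.0 (Loxl1) on the FDC arrays. On the BMDC arrays Lox was at 93.5 and 212.5 and Loxl1 at 43.9 and 31.1. Loxl1 lay under the filter in BMDC and passed it through its FDC signals. FL-Y had 20996.4 for Lox and 14768.9 for Loxl1, and activated FL-Y 10262.2 and 10650.6. The small proteoglycans Bgn and Dcn, which bind microfibrils, rose by 8.83 ± 0.43 and 9.67 ± 1.18 (SE; adjusted p = 0.00264 and 0.0107 in limma). Dcn read 4233.2 on FL-Y and 10876.9 on activated FL-Y, against 52260.1 and 47482.1 on the FDC arrays. On the BMDC arrays Dcn read 2.8, under the 20th percentile, and 204.5. Its difference was 11.59 between the arrays numbered 1 and 7.76 between those numbered 2. Fn1, the fibronectin on which microfibrils assemble, was named after its values were seen and differed by 0.05 ± 0.41 (adjusted p = 0.961 in limma).

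Genes of the Ltbp family, for TGF-beta ligands and for ADAMTS and ADAMTS-like proteins were read next. Of 13 tested, 4 rose (against 5.87% of all tested genes), 0 fell (5.4%) and 9 did not pass, with a median of 1.47. Ltbp2, a fibrillin-binding relative of the fibrillins, read 11027.0 and 12111.8 in FDC, 33.0 and 84.8 in BMDC, 3442.3 on FL-Y and 5636.5 on activated FL-Y. Its difference was 7.40 ± 0.49 (SE; adjusted p = 0.00303 in limma). The protease Adamts6 rose by 4.85 ± 0.61, Adamtsl1 by 4.49 ± 0.92 and the growth factor Tgfb3 by 4.31 ± 0.66, with an adjusted p of 0.0117, 0.0454 and 0.0198 in limma. On the BMDC arrays Adamts6 read 9.5 and 3.6, Adamtsl1 7.3 and 107.0, and Tgfb3 31.8 and 3.8. Their mean log2 values in BMDC lay under the filter, and they passed it through their FDC signals. The other Ltbp genes, Ltbp1, Ltbp3 and Ltbp4, had differences of 1.63 ± 1.30, 1.60 ± 0.50 and 1.47 ± 0.54 and did not pass (adjusted p = 0.526, 0.130 and 0.181 in limma).

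Enzymes that degrade elastin, and their inhibitors, split between the cell types. Of 17 tested, 3 rose in FDC (Mmp2, Timp1 and Timp3, against 5.87% of all tested genes), 6 fell (5.4%) and 8 did not pass. The median difference was -1.05. The macrophage elastase Mmp12 read 132.5 and 722.6 in FDC and 76077.8 and 61117.4 in BMDC, and was at 5.0 on FL-Y. The elastinolytic cathepsin Ctss was at 282.9 and 394.0 in FDC, 50862.4 and 32465.0 in BMDC and 7.1 on FL-Y, a difference of -6.87 ± 0.44 (SE; adjusted p = 0.00303 in limma). The neutrophil protease Prtn3 had a difference of -5.88 ± 0.91 (adjusted p = 0.0204 in limma). The inhibitor Slpi, named after its values were seen, was also among the 6 that fell, with -3.49 ± 0.39 (adjusted p = 0.00831 in limma). Mmp2, a gelatinase that also cuts elastin, went the other way, with 19841.7 and 8291.5 in FDC and 106.2 and 210.5 in BMDC. FL-Y had 160.7 for Mmp2 and activated FL-Y 125.7, within the range of the BMDC arrays.

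Among 13 tested receptors of fibrillin and elastin, 2 rose (against 5.87% of all tested genes), 0 fell (5.4%) and 11 did not pass. The median difference was 1.05. Those that rose were the syndecans Sdc2 and Sdc4. Sdc2 was at 6181.3 and 3120.6 in FDC against 93.6 and 41.5 in BMDC, and Sdc4 at 4225.7 and 2513.8 against 500.1 and 600.0. Their differences were 5.83 ± 0.56 and 2.54 ± 0.44 (SE; adjusted p = 0.00535 and 0.0276 in limma). The integrin chain Itgav, named after its values were seen, had a difference of 1.73 ± 0.41 (adjusted p = 0.0653 in limma). FL-Y had 4583.4 for Sdc2 and 2036.1 for Sdc4, between the FDC arrays for Sdc2 and below both for Sdc4.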

How the data were processed

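Total RNA of 6 mouse samples was labelled with biotin and hybridised to 1 array each, per the labels. The deposited table holds linear intensities, 1 for each probe set on each array. The authors had scaled every array to a mean of 500 after trimming 2% at each end, as the values show. The sources used here do not name the program behind the signals or its background handling. Detection calls were not used, and precision is limited by the number of arrays. The platform annotation gave 34945 probe sets 1 gene and 932 several (not used), and 64 are controls.

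An offset of 14.2, the median 20th percentile of the arrays, was added before taking log2, which understates differences of dim genes. A probe set was tested where its log2 values, averaged across the 4 FDC and BMDC arrays, exceeded the 40th percentile of such averages (equal to a signal of 46.4). The contrast of FDC with BMDC was fitted in R 4.3.3 by limma 3.58.1 (lmFit, eBayes, two-sided, Benjamini-Hochberg over 27022 probe sets, threshold 0.05), and the test was tested on simulated data. An exact permutation of 2 against 2 arrays cannot give a p below 0.333. A gene was read by its brightest probe set over the 6 arrays, with its other probe sets beside it. FL-Y arrays were described without a test.

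The members, lists and rules were chosen with earlier results of these data known. From each list the up to 4 called genes with the largest difference were named, with the 6 genes most correlated to the members. Alternatives covered the offset, scaling, filter, probe set rule, arrays in the fit, a replicate block and each array left out.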

Additional observations from a re-analysis of the deposited data

How the results depend on the processing

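The calls of Mfap5, Fbln2 and Mfap2 kept their direction and passed the threshold under all 12 alternatives. Fbln5 lost its call with the median over its probe sets (2.44, adjusted p = 0.0608 in limma) and without BMDC array 1 (4.54, adjusted p = 0.0553). Fbln1 gained one with the offset at the 40th percentile (4.25, adjusted p = 0.0408), with one median for all arrays (4.90, adjusted p = 0.0460) and without either FDC array. Over all probe sets, 1307 were called higher and 1106 lower in FDC. With no offset and a floor at the 5th percentile these were 787 and 656, and with no filter 795 and 638. Leaving out 1 array gave 776 to 1042 higher and 536 to 1048 lower, 4 to 9 member probe sets of 8 to 12 that passed the filter (5 of 10 with all arrays), and 1 to 3 of the same 5 members at least 1 lower in FL-Y (1 with all arrays, 0 with one median for all arrays). The replicate block, which takes array numbers as pairs, gave 1326 higher and 1066 lower, and 4 member genes called as in the fit without it. The labels number only 1 of the BMDC arrays, so the numbers are not taken as pairs. The difference between FDC arrays 1 and 2 correlated with that between BMDC arrays 1 and 2 at 0.199 over 27022 probe sets. With 2 arrays per group this cannot decide whether the arrays were paired. The cause of the changes between settings was not tested. Signals near the 20th percentile limit what can be said of Eln, Fbn2 and Mfap4.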
